A study of Mus musculus with 6 samples.

Results

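The genes described here are the ligands and receptors of the TNF superfamily in lungs of balb/c mice, collected at 0 days (D0) or 14 days (D14) from orthotopic K7M2 implantation. K7M2 is an osteosarcoma line of the mouse known for lung metastasis. Members were chosen by symbol: rows named Tnfsf or Tnfrsf followed by a number and small letters, together with Lta, Ltb, Ltbr, Fas, Fasl, Cd40, Cd40lg, Cd27, Cd70, Eda2r and Ngfr. This gave 43 of the 29703 symbols in the table, of which 16 encode ligands and 26 encode receptors. The remaining row, Tnfsf13os, is a non-coding RNA from the strand opposite Tnfsf13, so it is a member by its name only. Tnf itself is not analysed here. Each day had 3 libraries of whole lung RNA, numbered as biological replicates. Every mouse in the series received K7M2 cells, so the effects of the tumour, the procedure, age and collection day cannot be told apart. The labels do not say whether 1 library came from 1 mouse, and p-values therefore measure only the spread between these libraries.

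TNF superfamily ligands are mostly trimeric membrane proteins that bind receptors with cysteine-rich extracellular domains. Receptors with a death domain can recruit FADD and caspase-8 and start apoptosis, and most others bind TRAF adaptors and activate NF-kB. In lung and in lymphoid tissue the family is known for lymphocyte survival and co-stimulation, for the build-up of lymphoid structures through lymphotoxin, and for killing of tumour cells by TRAIL and Fas ligand.

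The promoters shown are those of the members with an unadjusted p under 0.05 that a table of RefSeq promoter windows covered, Ltb, Tnfrsf21 and Tnfrsf18. The other such members, Tnfrsf10b, Tnfsf13os, Tnfsf9 and Cd40, had no window. Windows in that table matched 32 of the 43 members. Each runs 5′ to 3′ on the + strand of GRCm38.p6 from 250 bases before the start to 50 after it, and capitals mark matches to a searched motif.
Ltb, chr17:35194257-35194556: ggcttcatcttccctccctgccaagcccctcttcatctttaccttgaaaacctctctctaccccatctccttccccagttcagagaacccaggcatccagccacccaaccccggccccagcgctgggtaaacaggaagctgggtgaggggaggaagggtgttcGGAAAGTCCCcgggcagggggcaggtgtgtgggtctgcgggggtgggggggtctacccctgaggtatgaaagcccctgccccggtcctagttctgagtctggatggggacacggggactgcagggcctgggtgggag
Tnfrsf21, chr17:43016305-43016604: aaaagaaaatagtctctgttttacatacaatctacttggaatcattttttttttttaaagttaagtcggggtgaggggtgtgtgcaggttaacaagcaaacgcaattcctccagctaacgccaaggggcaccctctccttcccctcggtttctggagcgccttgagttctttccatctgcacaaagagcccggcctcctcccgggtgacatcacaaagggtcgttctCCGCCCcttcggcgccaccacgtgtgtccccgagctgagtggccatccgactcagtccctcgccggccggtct
Tnfrsf18, chr4:156026072-156026371: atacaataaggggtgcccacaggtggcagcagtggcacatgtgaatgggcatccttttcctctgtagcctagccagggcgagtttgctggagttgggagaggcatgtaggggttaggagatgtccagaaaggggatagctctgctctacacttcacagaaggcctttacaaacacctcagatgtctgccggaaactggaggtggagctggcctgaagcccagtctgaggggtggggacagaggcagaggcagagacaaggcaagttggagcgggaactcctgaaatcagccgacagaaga

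On both strands the windows were searched for the NF-kB consensus (the kB motif), TGANTCA (AP-1), TGACGTCA (CRE), TGATGCAA (C/EBP-ATF), GGGCGG (GC box) and TATAAA. The Ltb window held 1 kB match, which begins at position −87 from the start and which 8.46% of 32851 promoter windows of the same length also hold in some form. The Tnfrsf21 window held 1 GC box match at position −23, a motif found in 35.7% of all windows. In the Tnfrsf18 window these letters were not found. A match describes letters in the window and is not a measured binding site. The kB motif was present in 4 of 36 member windows (11.1%), and TGANTCA in 7 of 36 (19.4%) against 7.81% of all windows. Both windows of Tnfsf13b are among those 7, overlap and hold the same match, which is therefore counted in each.

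Library totals ran from 14878101 to 17385006 counts, and 38 of the 43 members passed the filter on low counts. The tissue label says lungs while the extraction text names BMDMs, and the alveolar surfactant gene Sftpc ran from 12446 to 34630 CPM, the counts as a rate per library total with TMM factors applied. D0 replicate 3 stood apart from the rest, with Pearson correlations of log2 CPM of 0.919 to 0.955 to the other libraries against 0.956 to 0.970 among those. Haemoglobin genes took 4.98% of its counts and between 0.985% and 2.77% elsewhere. It was the lowest or the highest of the 6 libraries for 55.3% of the tested members and for 58.5% of all tested genes, so the members were drawn apart in that library about as often as genes in general.

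The receptor Tnfrsf10b was about 3-fold higher at D14 and the ligand Ltb about 2.6-fold lower, while the most abundant members, Tnfrsf1a, Ltbr and Tnfsf12, had D14 to D0 ratios of 1.00, 0.899 and 0.945. No member passed an adjusted p of 0.05 in edgeR's quasi-likelihood test, where 0.0339% of all 17686 tested genes did. At an unadjusted p under 0.05 stood 7 of the 38 tested members (18.4%), against 12.6% of all tested genes. Of these, 3 were higher at D14 (5.48% of all genes) and 4 were lower (7.09% of all genes); without D0 replicate 3 these were 3 and 2. D0 and D14 ranges did not overlap for 11 members, where 21.6% of all genes had ranges apart: 4 members were higher (10.9% of all genes) and 7 lower (10.7%). The median log2 fold change was −0.05 over the tested members, −0.37 over the 12 tested ligands and 0.00 over the 25 tested receptors, beside −0.03 over all tested genes. DESeq2 on the same counts gave an adjusted p under 0.05 for 2 members, Tnfrsf10b and Ltb. It did so for 1.68% of the 16301 genes that it gave an adjusted p. Without a low count filter edgeR called the same pair, beside 0.0874% of 29753 lines. These shares thus rest on different numbers of genes.

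**Figure D1:**
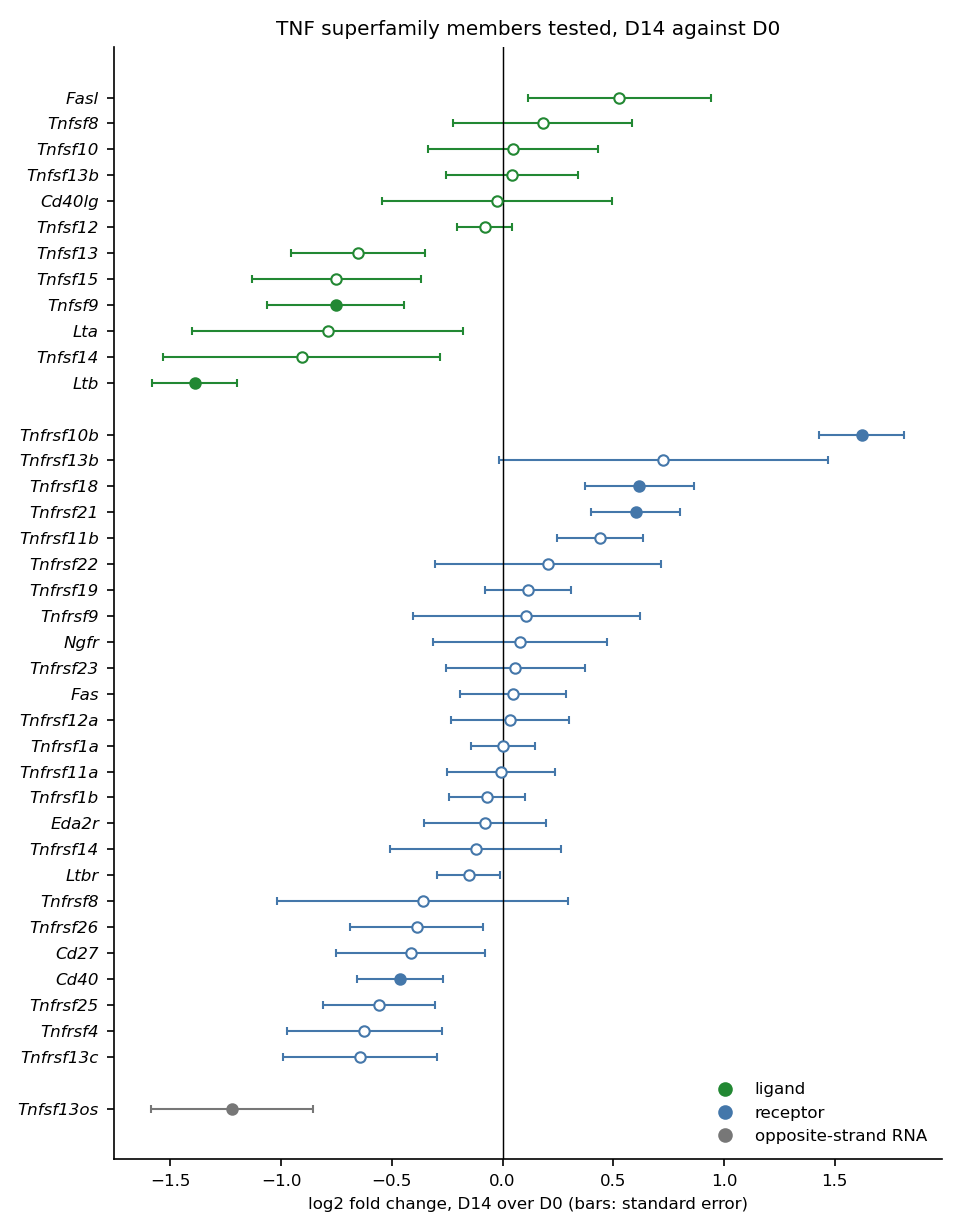
Log2 fold change of D14 over D0 for each of the 38 tested members, with bars of 1 standard error; ligands are green, receptors blue and the opposite-strand RNA grey, and filled points mark an unadjusted p under 0.05. Tnfrsf10b at 1.62 and Ltb at −1.39 lie farthest from 0, and 18 of the 38 points lie within 0.25 of it.

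TRAIL, encoded by Tnfsf10, is a ligand that can start apoptosis through death receptors, and Tnfrsf10b encodes the death receptor for it in the mouse. Tnfrsf10b is a protein-coding gene on chromosome 14 from 69767472 to 69784411 (GRCm38, + strand). It had 13.3, 13.9 and 12.2 CPM at D0 against 37.7, 50.3 and 33.3 at D14. All 3 D14 libraries lay well above the narrow D0 range. Its log2 fold change was 1.62 (SE 0.19; adjusted p = 0.0786, edgeR quasi-likelihood test), and DESeq2 gave an adjusted p of 2.17e-09. Leaving out 1 library at a time gave log2 fold changes from 1.44 to 1.75, with adjusted p from 0.0700 to 0.279 in edgeR.

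The ligand was level on average. Tnfsf10 had 240, 136 and 71.8 CPM at D0 against 167, 146 and 149 at D14, which is a log2 change of 0.05 (SE 0.38; adjusted p = 0.961, edgeR). The D0 libraries spread widely on either side of the D14 libraries, and without D0 replicate 1 the log2 fold change was 0.58 (adjusted p = 0.299). Osteoprotegerin, a soluble decoy receptor for RANKL that also binds TRAIL, is encoded by Tnfrsf11b, which had 6.57, 5.43 and 6.88 CPM at D0 against 8.46, 8.93 and 8.27 at D14. These ranges did not overlap, but the log2 fold change of 0.44 (SE 0.19) did not pass (adjusted p = 0.406).

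Tnfrsf22 and Tnfrsf23 encode mouse decoy receptors for TRAIL and lie with the related Tnfrsf26 on chromosome 7, at gaps of 16147 and 6083 bases. An antisense gene, E230032D23Rik, overlaps each of them by gene span on the opposite strand and had 2 to 7 counts in a library. Whether these related genes share reads was not tested, so their counts are uncertain. Tnfrsf22 had 10.6, 4.09 and 2.39 CPM at D0 against 5.39, 6.19 and 8.27 at D14, and without D0 replicate 1 its log2 fold change was 1.03 in place of 0.21. Tnfrsf23 had 3.64 ± 0.195 CPM at D0 against 3.80 ± 1.25 at D14 (SD, n = 3), and Tnfrsf26 had 5.76 ± 0.801 and 4.39 ± 1.43 CPM. None of these decoy receptor genes passed.

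Downstream of the death receptor, Fadd, the adaptor, had 19.5, 18.9 and 20.9 CPM at D0 against 17.1, 18.6 and 18.8 at D14. Casp8, the initiator caspase, had 50.5, 37.1 and 36.1 CPM at D0 against 49.4, 46.0 and 42.8 at D14. Cflar, which encodes the caspase-8 inhibitor c-FLIP, had 13.9 CPM in D0 replicate 3 and between 159 and 251 CPM in the other 5 libraries. Its log2 fold change of 0.88 (SE 0.77) did not pass.

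**Figure D2:**
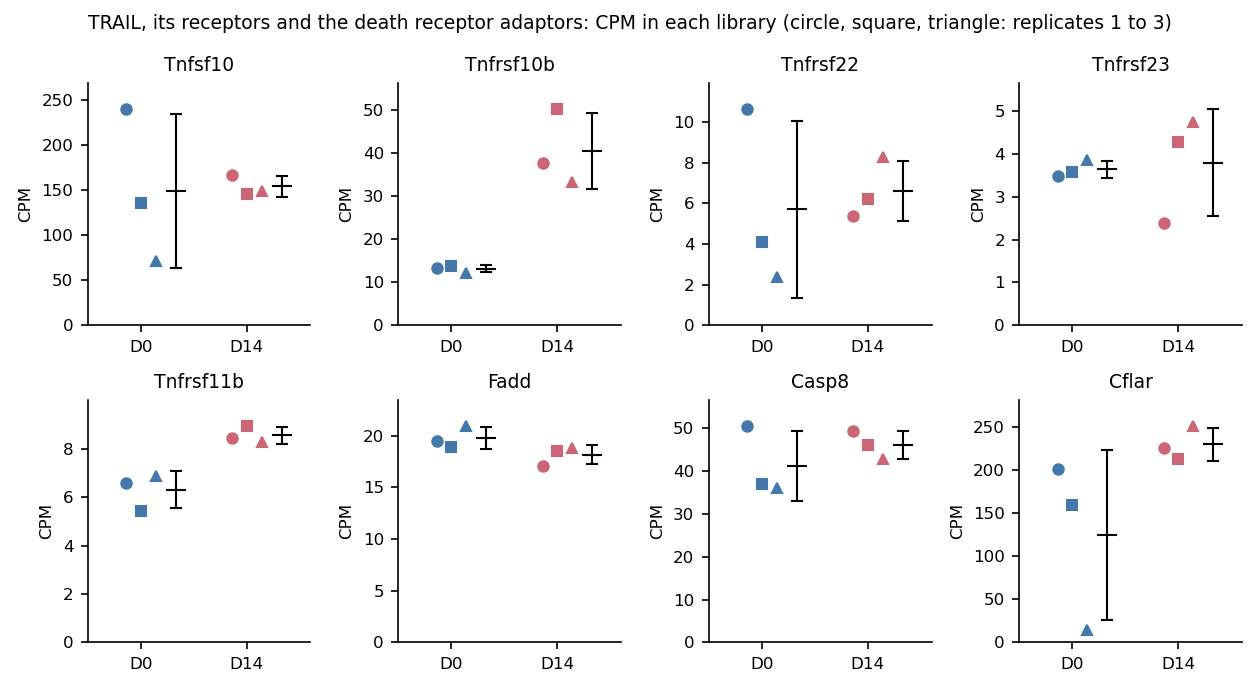
CPM in each library for Tnfsf10, its receptors and decoys, and Fadd, Casp8 and Cflar, with replicates 1 to 3 as circle, square and triangle and the mean with SD in black; each vertical axis starts at 0. Tnfrsf10b is apart between days, Tnfsf10 ranges from 71.8 to 240 CPM within D0, and Cflar is low in D0 replicate 3 alone.

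Transcription of Tnfrsf10b is known to respond to p53 and to the integrated stress response. Of 15 p53 target genes, 2 were higher at D14 at an unadjusted p under 0.05 (5.48% of all tested genes) and none lower (7.09%). Trp53inp1 had 90.6, 91.2 and 89.0 CPM at D0 against 130, 140 and 207 at D14, and Cdkn1a, a cell cycle inhibitor, had 56.0, 59.2 and 107 CPM at D0 against 68.8, 267 and 324 at D14. The list's median log2 fold change was 0.17, and Mdm2, Bax and Ccng1 stood at 0.21 (SE 0.12), −0.22 (SE 0.19) and −0.02 (SE 0.15). Of 10 integrated stress response genes 2 were higher at an unadjusted p under 0.05 (5.48% of all tested genes) and none lower (7.09%). These were Atf3 at 1.97 (SE 0.57) and Atf4 at 0.45 (SE 0.18), while Ddit3, which encodes CHOP, stood at −0.19 (SE 0.19). The median of this list was 0.13, with 6 genes above 0 and 4 below. None of these genes passed an adjusted p of 0.05 (edgeR).

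Markers of other cells differed in level in the same libraries. Of 10 endothelial markers 5 were higher at D14 at an unadjusted p under 0.05 (5.48% of all genes) and none lower, none passed an adjusted p of 0.05 in edgeR, and none was at 0 throughout. Their summed level ran from 2975 to 5175 CPM at D0 and from 5751 to 5873 CPM at D14. The part of endothelial RNA in the Tnfrsf10b difference was not tested. In bulk lung RNA, fewer or more cells of a type and less or more RNA per cell cannot be told apart, which holds for every member.

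**Figure D3:**
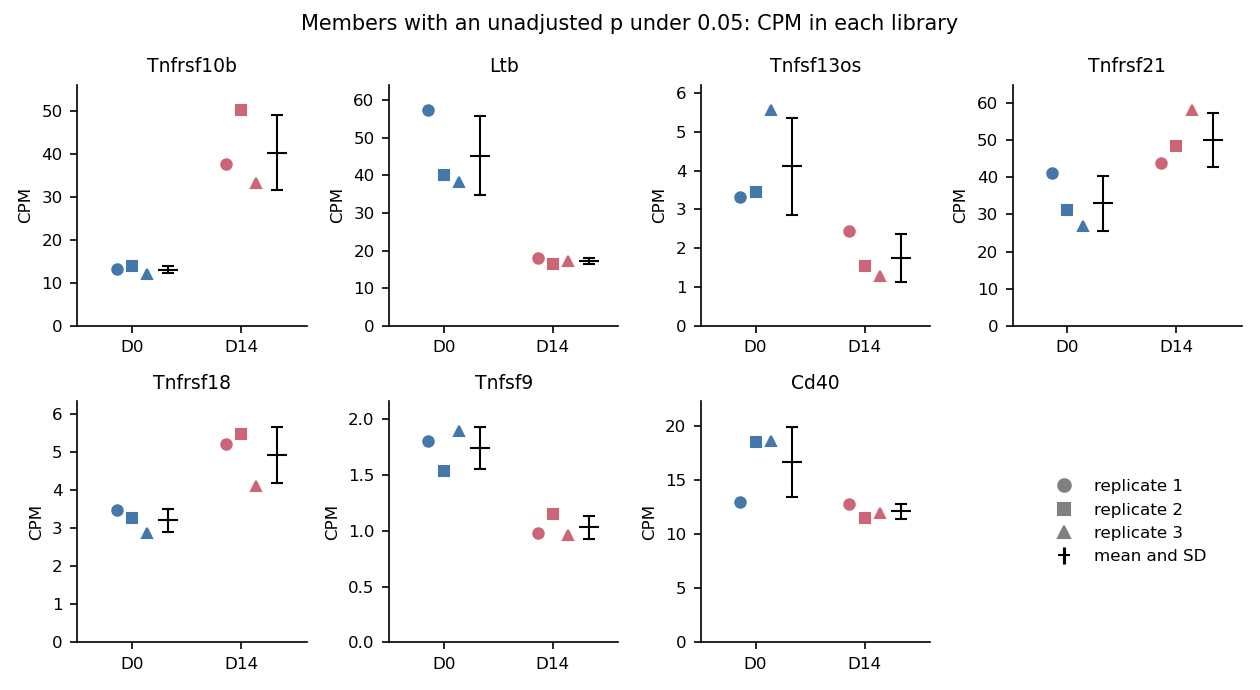
CPM in each library for the 7 members with an unadjusted p under 0.05, with replicates as symbols, the mean and SD in black and each vertical axis from 0. In every panel the D0 and D14 points do not overlap, but for Cd40 the gap is 12.8 against 13.0 CPM.

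Lymphotoxin alpha and beta, encoded by Lta and Ltb, form a membrane heterotrimer on lymphocytes that signals through the lymphotoxin beta receptor, Ltbr, on stromal and myeloid cells. Ltb, on chromosome 17 from 35194439 to 35196320 (GRCm38, + strand), had 57.3, 40.1 and 38.3 CPM at D0 against 18.0, 16.3 and 17.4 at D14. All D14 libraries lay far below the lowest D0 library, and the days did not overlap. The log2 fold change was −1.39 (SE 0.19; adjusted p = 0.0857 in edgeR and 7.86e-07 in DESeq2). With 1 library left out it ranged from −1.50 to −1.18, with adjusted p from 0.0516 to 0.449 in edgeR. A microRNA gene that lies in the Ltb locus on the same strand, Mir6973a, had at most 5 counts in a library.

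Lta lies 6844 bases from Ltb, is transcribed from the other strand and was barely expressed, at 1.34, 0.511 and 1.40 CPM at D0 against 0.348, 1.15 and 0.385 at D14. The ranges overlapped, and the log2 fold change of −0.79 (SE 0.61) became −1.55 without D14 replicate 2. Ltbr was among the most abundant members and almost level, at 118, 105 and 110 CPM at D0 against 111, 96.8 and 91.4 at D14 (log2 fold change −0.15, SE 0.14; adjusted p = 0.637, edgeR). Tnfsf14, or LIGHT, the other ligand of that receptor, had 1.53 ± 0.650 CPM at D0 against 0.814 ± 0.539 at D14. Tnfrsf14, or HVEM, which binds LIGHT and lymphotoxin alpha, had 14.4, 10.4 and 4.63 CPM at D0 against 10.1, 7.33 and 9.61 at D14. Its log2 fold change was −0.12 (SE 0.38) with all libraries and 0.27 without D0 replicate 1.

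Ltb is known as a gene of lymphocytes, and 12 of 12 B cell markers had a negative log2 fold change, 11 of them at an unadjusted p under 0.05 (7.09% of all genes) and none at an adjusted one in edgeR. The count of 11 came to 6 when D0 replicate 1 was left out, to 6 when D0 replicate 3 was, and to 5 when D14 replicate 1 was. The 12 markers summed to 423, 238 and 376 CPM at D0 against 156, 203 and 206 at D14, and none was at 0 throughout. The 12 T cell markers summed to 209, 123 and 129 CPM at D0 against 117, 147 and 136 at D14. Among these, 2 were lower at an unadjusted p under 0.05 (7.09% of all genes), Cd3d and Trbc2, and none higher (5.48%). For each 100 CPM of B cell markers there were 13.5, 16.8 and 10.2 CPM of Ltb at D0 and 11.6, 8.03 and 8.43 CPM at D14, so these ratios overlapped between days. For each 100 CPM of T cell markers there were 27.3, 32.5 and 29.6 CPM of Ltb at D0 and 15.4, 11.1 and 12.8 CPM at D14, which did not overlap. Against B and T cell markers together the ratios were 9.06, 11.1 and 7.57 at D0 and 6.61, 4.66 and 5.08 at D14, also without overlap. With 3 libraries against 3, an exact permutation test of such a ratio could give no two-sided p below 0.1, and none was run. The part of lymphocyte number in the Ltb difference was not tested.

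Lymphotoxin receptor signalling is known to maintain a set of chemokine and vessel genes in lymphoid tissue. Of the 6 tested, none had an unadjusted p under 0.05, beside 12.6% of all tested genes. Ccl21a, a chemokine that guides T cells and dendritic cells, had 20.8, 22.5 and 25.5 CPM at D0 against 18.9, 26.0 and 14.8 at D14. Cxcl13, which attracts B cells, ran from 5.58 to 63.1 CPM within D0 and from 3.88 to 30.7 CPM within D14. Glycam1 had 0 CPM in D14 replicate 1 and 58.6 CPM in D14 replicate 2.

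**Figure D4:**
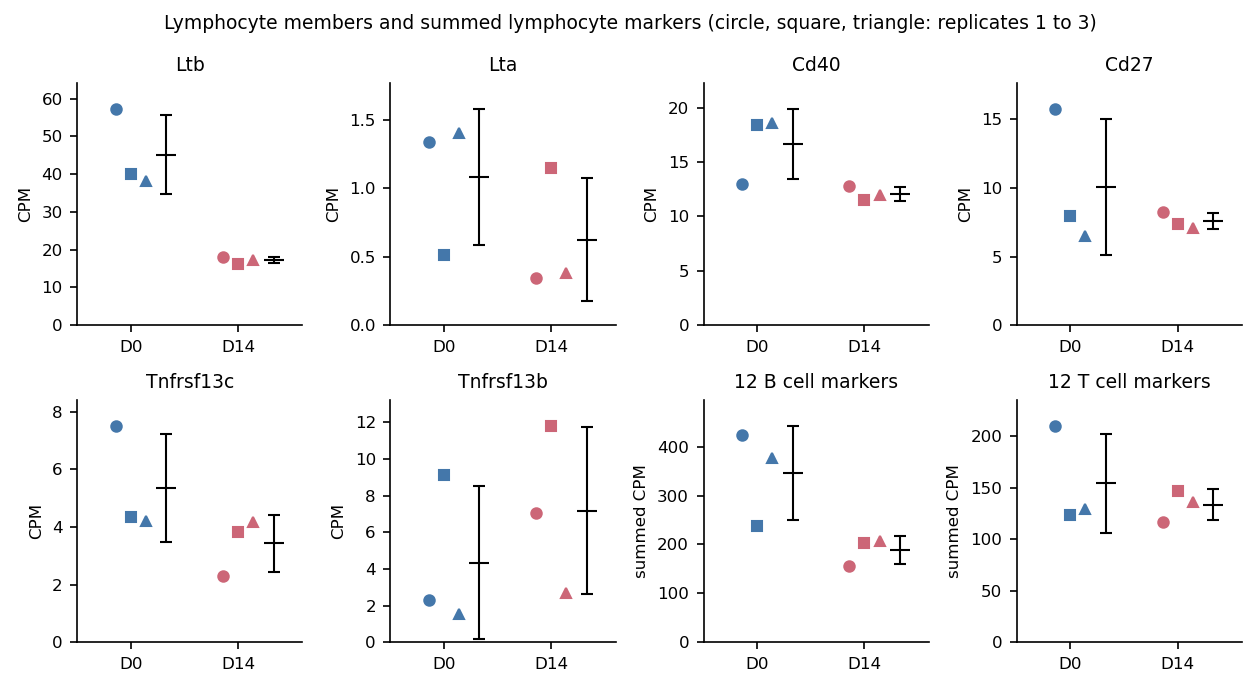
CPM in each library for Ltb, Lta and 4 lymphocyte receptors of the family, and the summed CPM of 12 B cell and 12 T cell markers; symbols are replicates 1 to 3, black marks are mean and SD, and each vertical axis starts at 0. Ltb and the B cell sum are lower in all D14 libraries than in any D0 library, and Tnfrsf13b varies from 1.54 to 11.8 CPM with no order by day.

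Other members are known best from B cells. Cd40, a receptor on B cells, dendritic cells and macrophages that drives B cell activation, had 13.0, 18.5 and 18.6 CPM at D0 against 12.8, 11.5 and 12 at D14. Its ranges were apart by a narrow margin, and the log2 fold change was −0.46 (SE 0.20; adjusted p = 0.394, edgeR). Its ligand Cd40lg, a gene of activated T helper cells, had 1.45, 0.511 and 0.702 CPM at D0 against 1.10, 1.02 and 0.513 at D14. The ligand was scarce and its days overlapped.

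BAFF, encoded by Tnfsf13b, and APRIL, encoded by Tnfsf13, support B cells and plasma cells through the receptors Tnfrsf13c, Tnfrsf13b and Tnfrsf17. Tnfsf13b had 10.5, 15.7 and 13.2 CPM at D0 against 9.50, 11.6 and 19.4 at D14 (log2 fold change 0.04, SE 0.30), a sign that turned to −0.31 without D14 replicate 3. The BAFF receptor gene Tnfrsf13c had 7.50, 4.34 and 4.21 CPM at D0 against 2.32, 3.83 and 4.17 at D14, apart by only 4.21 to 4.17 CPM and without passing (log2 fold change −0.64, SE 0.35). The log2 fold change was −0.31 without D0 replicate 1 and −0.42 without D14 replicate 1. Tnfrsf13b, which encodes TACI, had 2.33, 9.14 and 1.54 CPM at D0 against 7.07, 11.8 and 2.69 at D14. This receptor differed more among the libraries of 1 day than between days, and its log2 fold change of 0.73 (SE 0.74) was 1.89 without D0 replicate 2. Tnfrsf17, a receptor gene of plasma cells, was below the filter, at 2 to 21 counts in a library.

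The APRIL locus on chromosome 11 gave the lower opposite-strand RNA. Tnfsf13os had 3.31, 3.45 and 5.55 CPM at D0 against 2.43, 1.53 and 1.28 at D14, which is a log2 change of −1.22 (SE 0.37; adjusted p = 0.358, edgeR). Tnfsf13 had 4.42, 4.09 and 6.95 CPM at D0 against 2.78, 3.12 and 3.91 at D14, also without overlap (log2 fold change −0.65, SE 0.30; adjusted p = 0.415), and its log2 fold change was −0.38 without D0 replicate 3. By gene span, introns included, these genes overlap over 2939 bases on opposite strands, and shared exon bases were not measured. The strand handling of the counts is not given in the sources used here. Any shared reads therefore cannot be told apart, and both values are uncertain. A joint Tnfsf12 and Tnfsf13 gene, Tnfsfm13, spans the same locus and was looked up after its values were seen. It had 45.6, 42.7 and 47.0 CPM at D0 against 43.6, 33.9 and 31.6 at D14. Tnfsf12, which encodes TWEAK and shares that locus, varied least of the tested ligands, at 59.9, 59.2 and 61.2 CPM at D0 against 59.5, 55.6 and 55.4 at D14. By gene span, Tnfsfm13 covers 9600 bases of Tnfsf12 on the same strand and Tnfsf13os overlaps 4892 on the other. Shared exon bases were not measured here either, so this level is uncertain too.

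Several ligand and receptor pairs give second signals to T cells after antigen recognition. Tnfrsf18, which encodes GITR, a receptor rich on regulatory T cells, had 3.49, 3.26 and 2.88 CPM at D0 against 5.21, 5.48 and 4.10 at D14. Every D14 library was above every D0 library, with a log2 change of 0.62 (SE 0.25; adjusted p = 0.380, edgeR). Gm16008 covers the whole of Tnfrsf18 by gene span on the opposite strand. It had 25, 17 and 11 counts at D0 against 9, 9 and 10 at D14, beside 41 to 90 for Tnfrsf18. Gm16008 thus went the other way, at a log2 fold change of −0.93 (SE 0.40). Reads that the 2 genes may share cannot be told apart without strand, so the rise of Tnfrsf18 is uncertain. The ligand Tnfsf18 had between 1 and 5 counts in each library and was not tested. Tnfrsf4, or OX40, the neighbour of Tnfrsf18 on chromosome 4, had 2.73, 1.66 and 2.04 CPM at D0 against 1.8, 1.15 and 1.22 at D14. Tnfrsf4 thus lay on the other side of 0 from Tnfrsf18, with a log2 change of −0.62 (SE 0.35; adjusted p = 0.467) and overlapping days; the difference between these genes was not tested. Its ligand Tnfsf4 had 2, 0 and 3 counts at D0 and 0 in every D14 library. At D14, 3 counts correspond to between 0.174 CPM (replicate 1) and 0.192 CPM (replicate 3), a limit that covers counting error only.

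Tnfsf9, or 4-1BB ligand, had 1.8, 1.53 and 1.90 CPM at D0 against 0.985, 1.15 and 0.961 at D14. The days did not overlap, the log2 fold change was −0.75 (SE 0.31; adjusted p = 0.389, edgeR), and the values rest on 15 to 31 counts in a library. Its receptor Tnfrsf9 had 1.28, 0.958 and 1.83 CPM at D0 against 1.68, 2.1 and 0.577 at D14, with no order by day. The gene span of Camta1, introns included, overlaps that of Tnfrsf9 over 28781 bases on the opposite strand. Camta1 had 260 to 338 counts in a library against 9 to 33 for Tnfrsf9. Whether they share exon bases or reads was not tested, so the level of Tnfrsf9 is uncertain. A lincRNA opposite Tnfsf9, Gm11110, had 11, 18 and 15 counts at D0 against 28, 21 and 10 at D14. This leaves the low counts of Tnfsf9 uncertain without strand.

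Cd27, a receptor on T cells and memory B cells, had 15.8, 7.99 and 6.53 CPM at D0 against 8.23, 7.40 and 7.11 at D14. Only D0 replicate 1 was high, and without it the log2 fold change moved from −0.42 (SE 0.34) to 0.07. By gene span, Vamp1 covers the whole of Cd27 on the opposite strand, and shared reads were not tested. Vamp1 had 256 to 534 counts in a library against 93 to 271 for Cd27. Cd70, the ligand of Cd27, had 2 counts in 2 libraries and 0 in the others. Tnfrsf8 and Tnfsf8, the CD30 receptor and its ligand, had 0.897 ± 0.575 and 1.59 ± 0.415 CPM at D0 against 0.695 ± 0.412 and 1.8 ± 0.751 at D14. Tnfrsf25, or DR3, a death domain receptor of T cells, had 7.50, 8.18 and 10.8 CPM at D0 against 7.30, 6.06 and 4.61 at D14. The days of Tnfrsf25 were apart without passing (log2 fold change −0.56, SE 0.25; adjusted p = 0.413), and its ligand Tnfsf15 had 4.19, 9.71 and 4.49 CPM at D0 against 4.52, 3.38 and 3.01 at D14. For Tnfsf15 the log2 fold change of −0.75 (SE 0.38) was −0.25 without D0 replicate 2.

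Among receptors of tissue cells, Tnfrsf21, or DR6, a death domain receptor, had 41.0, 31.1 and 26.8 CPM at D0 against 43.8, 48.3 and 57.9 at D14. The days were apart, with D0 replicate 1 close to the D14 range, and the log2 fold change was 0.60 (SE 0.20; adjusted p = 0.364, edgeR). The summed endothelial markers were at 5175, 3737 and 2975 CPM at D0 against 5873, 5751 and 5752 at D14. The part of endothelial RNA in the difference was not tested.

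The TNF receptors themselves were steady. Tnfrsf1a, the widely expressed death domain receptor of TNF, had 162, 145 and 145 CPM at D0 against 162, 155 and 135 at D14, a log2 fold change of 0.00 (SE 0.14). Tnfrsf1b, the TNF receptor without a death domain, had 52.6, 58.3 and 55.2 CPM at D0 against 58.1, 58.4 and 41.6 at D14 (log2 fold change −0.07, SE 0.17). Neither passed, and the days overlapped for both. Tnfrsf12a, or Fn14, the receptor of TWEAK, had 15.3, 19.2 and 25.8 CPM at D0 against 24.2, 22.9 and 14.6 at D14, so that the libraries of each day covered the same range.

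Fas, a death receptor, had 21.5, 28.8 and 35.0 CPM at D0 against 25.1, 25.4 and 37.6 at D14 (log2 fold change 0.05, SE 0.24). Fas ligand, Fasl, a gene of cytotoxic lymphocytes, had 0.988, 1.15 and 1.33 CPM at D0 against 2.49, 1.02 and 1.47 at D14, the highest value being that of D14 replicate 1. Tnfrsf19, or TROY, an orphan receptor, had 40.6 ± 9.37 CPM at D0 against 44.1 ± 2.27 at D14. Eda2r, the receptor of an ectodysplasin isoform, had 2.70 ± 0.488 and 2.55 ± 0.235 CPM, and Ngfr, the p75 neurotrophin receptor, 1.04 ± 0.0620 and 1.10 ± 0.444 CPM (SD, n = 3 each). Tnfrsf11a, or RANK, the osteoclast differentiation receptor, had 7.15 ± 1.71 CPM at D0 against 7.11 ± 0.976 at D14. Its ligand Tnfsf11, or RANKL, had 4 to 11 counts at D0 and 1 to 21 counts at D14, below the filter. For Fas, Fasl, Tnfrsf19, Eda2r, Ngfr and Tnfrsf11a the days overlapped.

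Levels can be compared between members only per length, here as CPM per kilobase of the longest annotated coding transcript. On that scale Tnfrsf1a stood highest, at 69.8 ± 4.61 at D0 and 69.9 ± 6.55 at D14 (SD, n = 3). Ltbr followed at 52.7 ± 3.15 and 47.3 ± 4.82, and the ligand Tnfsf12 at 41.9 ± 0.683 and 39.6 ± 1.61. Tnfsf10 had 29.9 ± 17.1 and 30.9 ± 2.26, and Ltb 39.0 ± 9.04 at D0 and 14.9 ± 0.735 at D14. Tnfrsf12a, Fas and Tnfrsf1b came next among receptors, with means over all libraries of 20.7, 19.5 and 14.2. Only 3 ligands, Tnfsf12, Tnfsf10 and Ltb, had a mean above 10 CPM per kilobase, and the next was Tnfsf13 at 2.80. Tnfrsf10b stood at 4.12 ± 0.262 at D0 and 12.7 ± 2.77 at D14, from below Tnfrsf21 (9.09 ± 2.02) at D0 to close to it (13.8 ± 1.99) at D14.

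**Figure D5:**
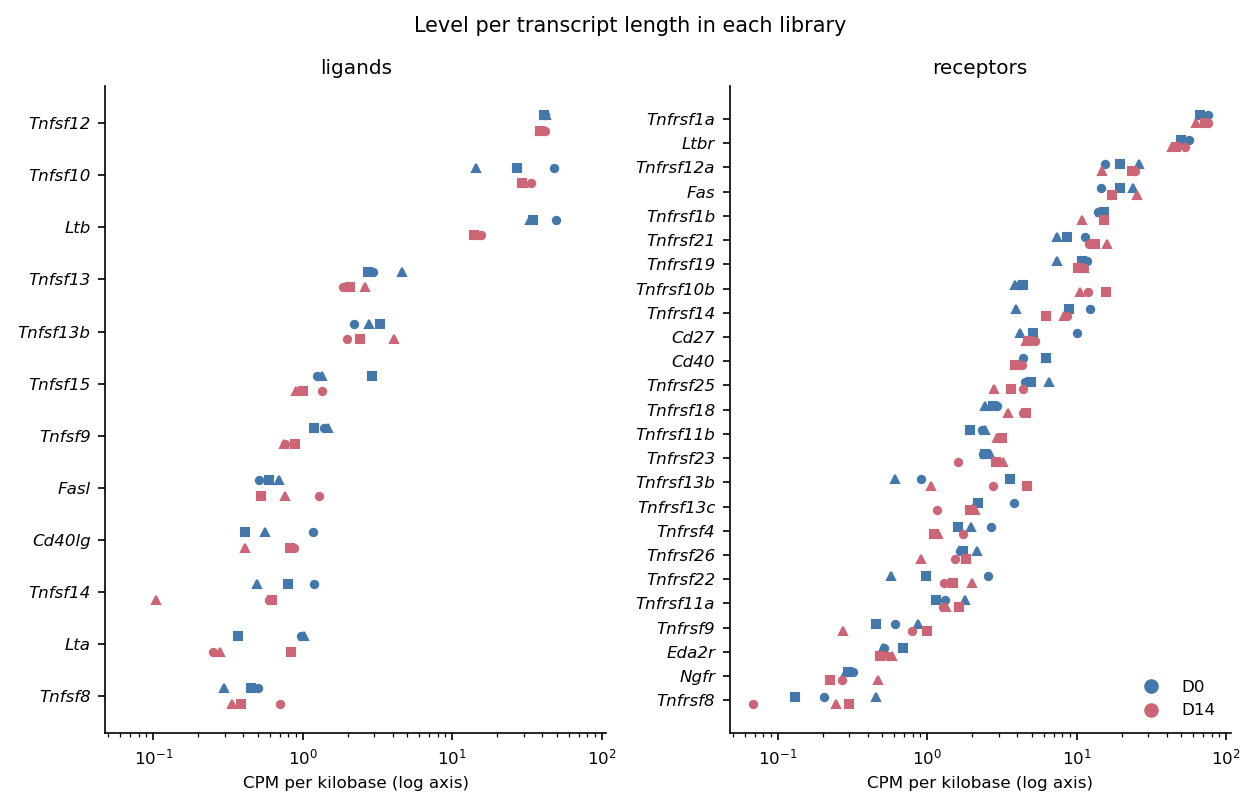
Level in each library per kilobase of transcript, on a log axis, for the 12 tested ligands (left) and 25 tested receptors (right), ordered by mean level; blue is D0, red is D14, and replicates 1 to 3 are circle, square and triangle. Tnfrsf1a, Ltbr, Tnfsf12, Tnfsf10 and Ltb lead, and every other tested ligand has a mean of 2.80 or less.

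Members also differed in how much they varied among libraries of 1 day. At D0 the coefficient of variation was 96.3% for Tnfrsf13b, 76.4% for Tnfrsf22 and 57.0% for Tnfsf10, and at D14 it was 72.1% for Lta. It was 1.63% for Tnfsf12, 5.98% for Ltbr and 6.34% for Tnfrsf10b at D0, and 21.8% for Tnfrsf10b at D14. The members lie on 14 chromosomes in GRCm38, and 22 of the 43 lie within 100 kb of another member. Among neighbours, Ltb stood at −1.39 and Lta at −0.79 on the log2 scale, with overlapping days for Lta. Tnfrsf18 stood at 0.62 and Tnfrsf4 at −0.62, with overlapping days for Tnfrsf4. Ltbr and Tnfrsf1a, 35476 bases apart on chromosome 6, stood at −0.15 and 0.00, and no test of shared direction was run.

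The signalling genes that the receptors share were tested from a list of 30, and 7 had an unadjusted p under 0.05, 3 higher and 4 lower at D14, beside 12.6%, 5.48% and 7.09% of all tested genes, with a median log2 fold change of 0.12. Traf1, an adaptor induced by NF-kB, had 79.9, 80.9 and 79.1 CPM at D0 against 56.8, 34.8 and 41.6 at D14 (log2 fold change −0.85, SE 0.19; adjusted p = 0.326, edgeR). Tradd and Traf2, adaptors of TNF receptor 1, stood at −0.61 (SE 0.18) and −0.41 (SE 0.14), and Relb, a subunit of the NF-kB dimer that lymphotoxin receptor signalling activates, at −0.44 (SE 0.19). On the higher side were Mlkl, the effector of necroptosis, at 0.58 (SE 0.20), Rel at 0.43 (SE 0.16) and Nfkb1 at 0.42 (SE 0.18). None passed over all genes, and the count of 7 was 4 without D0 replicate 3 or without any 1 of the D14 libraries.

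Of 14 tested genes that NF-kB induces, 1 was higher and 1 lower at an unadjusted p under 0.05, beside 5.48% and 7.09% of all tested genes. Tnfaip3, which encodes A20, an inhibitor of TNF receptor signalling, had 34.4, 32.1 and 36.4 CPM at D0 against 57.5, 59.2 and 56.1 at D14. The groups were tight and well apart, with a log2 change of 0.75 (SE 0.13; adjusted p = 0.199, edgeR). Tnip1, whose product binds A20, had 47.2, 41.3 and 47.5 CPM at D0 against 36.5, 31.7 and 35.3 at D14 (log2 fold change −0.39, SE 0.14; adjusted p = 0.364). The adhesion genes Vcam1 and Icam1 stood at 0.34 (SE 0.15) and −0.31 (SE 0.17), and the list's median was 0.02. Ranges were apart for 4 higher and 2 lower genes of the 14, beside 10.9% and 10.7% of all tested genes. At an unadjusted p under 0.05, DESeq2 gave 4 genes of the list. Leaving out D0 replicate 3 also gave 4, and leaving out D14 replicate 2 gave 1.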

How the data were processed

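Bulk RNA-seq of lung was used, 3 libraries at D0 and 3 at D14. The labels' protocols name TRIzol extraction and an NEB library kit; the extraction text names BMDMs, the tissue label lungs. The submitters' processing notes list GRCm38 and the tools HISAT2 2.1.0, CASAVA 1.8, edgeR and StringTie 1.3.4b without roles; how strand was handled and which annotation was counted is not given in the sources used here. The deposited table holds estimated counts per symbol, all whole in the lines used. Of its 29757 lines, 4 were dropped, 2 of them empty and 2 holding displaced values. Where a symbol repeats, the line with the highest total carries it.

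All genes were fitted with edgeR 4.0.16 (R 4.3.3): TMM factors, the default low count filter, robust quasi-likelihood F tests, two-sided, Benjamini-Hochberg over 17686 genes, threshold 0.05. SE is the log2 fold change divided by the square root of F. The test was tested on simulated data. Positions and transcript lengths come from GENCODE M21, promoters from RefSeq GRCm38.p6. Values in every library are given for members with an unadjusted p under 0.05, their partners, the 6 highest per length and the 3 most variable; further members, and pathway genes such as Fadd, Casp8, Cflar, Mdm2, Bax, Ccng1, Ddit3, Vcam1, Icam1 and Glycam1, were added after their values were seen. Members and lists were chosen with earlier results of these data known. Alternatives were DESeq2 1.42.0, RLE or no scaling factors, other filters, summed repeat lines, the replicate number as a block and each library left out.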

Additional observations from a re-analysis of the deposited data

How the results depend on the processing

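The count of members past an adjusted p of 0.05 was 0 in edgeR and stayed 0 with RLE factors, no scaling factors, a filter requiring 1 CPM or more in 3 libraries, summed repeat lines and any 1 library left out; it was 2 with DESeq2 and 2 without a low count filter, Tnfrsf10b and Ltb each time, and the cause was not tested. At an unadjusted p under 0.05 stood 7 members, and 4 to 8 with 1 library left out (4 without D0 replicate 2 or D14 replicate 3). The split of 3 higher and 4 lower was 1 and 6 without scaling factors, 4 and 3 with RLE factors and 3 and 2 without D0 replicate 3 or with DESeq2. The median log2 fold change of the members ran from −0.155 without D0 replicate 3 to −0.00858 with the replicate block. Same-numbered libraries of both days correlated at 0.119, −0.0548 and −0.0972 in their deviations, and differently numbered ones from −0.168 to 0.183. With 3 libraries a day these values cannot decide whether libraries of the same number were paired. With the replicate block 5 members had an unadjusted p under 0.05 and 0 an adjusted one. All 7 members kept their direction in 13 of 13 alternatives, but an unadjusted p under 0.05 held in 13 for Tnfrsf10b, Ltb and Tnfsf13os, 10 for Tnfrsf21, 7 for Tnfrsf18, and 4 each for Tnfsf9 and Cd40; with 1 library left out it held in 0 of 6 for Tnfsf9 and 1 of 6 for Cd40. Of 492 member values under alternatives, 479 were counted as the same, 9 as moved, 4 as gaining a call and 0 as reversed. For the 7 members, the same meant an adjusted p on the same side of 0.05, whatever the size of the move. For the other members it meant a move of less than 1 SE, and a change of sign was not counted as reversed. Depth limits the 5 members under the low count filter, which were not tested.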
